A study of Mus musculus with 28 samples.

Results

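Complement component C3, the alternative pathway that amplifies it and the receptors for its small cleavage products were followed across mouse genotypes in a model of lupus nephritis. The set held 7 genes, C3, Cfb, Cfp, Cfi, Cd55, C3ar1 and C5ar1, taken as the rows whose gene symbol equals one of these names. All 7 were measured among 12315 genes in whole kidney, and 5 of them among 10523 genes in sorted kidney macrophages. Cfi and Cd55 were not analysed in macrophages here. The 2 tissues together covered 12954 genes.

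The study asked how iRhom2, the inactive rhomboid protein encoded by Rhbdf2 needed to bring the protease ADAM17 to the plasma membrane, bears on kidney disease in mice lacking the inhibitory IgG receptor Fcgr2b. Polyadenylated RNA was sequenced from 16 whole kidney libraries, 4 per genotype, and from 12 macrophage libraries, 3 per genotype. The macrophages carried CD45, a high level of F4/80 and CD11b, and lacked Ly6G and Ly6C. All animals were female C57BL/6 littermates aged 7 to 9 months. The genotypes were wild-type, Rhbdf2-/-, Fcgr2b-/- (written FcR2b-/- in the genotype labels) and mice lacking both genes, called double mutant here. No other allele or agent is named in the labels, and the cell type in which each gene is missing is not restricted by any stated driver.

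Complement is a chain of plasma proteins and cell receptors that tags targets and recruits leukocytes. C3 is its hub: cleavage gives C3b, which binds surfaces and joins factor B (Cfb) to form the alternative pathway convertase, and C3a, a soluble anaphylatoxin. Properdin (Cfp) stabilises that convertase, factor I (Cfi) cuts C3b to end its activity, and CD55 speeds the decay of convertases on the cell surface. C3a acts through C3ar1, and C5a, released further down the chain, acts through C5ar1. Liver makes most circulating C3, tubular epithelium and macrophages also make it locally, properdin comes mainly from leukocytes, and both receptors are abundant on myeloid cells.

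Values are CPM, reads of a gene scaled to the depth of its library, and a log2 change is a difference of group means of log2(CPM+1), given with its standard error (SE) from limma. A gene was called changed at a Benjamini-Hochberg adjusted p below 0.05 over all genes of its tissue. The kidney libraries held between 29016608 and 41617059 recovered reads in the measured genes, the macrophage libraries between 30851228 and 34869658. The titles give most libraries a number of their own, but the labels do not say that these are animals, so the p-values rest on the spread between libraries, which may be technical. Each kidney genotype was run on a lane of its own, and an effect of lane cannot be told apart from one of genotype. Double-mutant kidney library 4 was the lowest of its group for C3, Cfp, C3ar1 and C5ar1, and results that rest on it are given with and without it. Reads of Rhbdf2 and Fcgr2b were present in libraries labelled as lacking them. In kidney Rhbdf2 was at 12.9 CPM in every wild-type library, 10.8 to 12.3 CPM in Rhbdf2-/- and 9.29 to 19.7 CPM in double mutants. Kidney Fcgr2b was at 29.3 to 35.8 CPM in wild-type, 23.4 to 34.2 CPM in Fcgr2b-/- and 20.7 to 41.5 CPM in double mutants, and these groups overlapped. In macrophages Fcgr2b was at 539 to 715 CPM in wild-type, 256 to 382 CPM in Fcgr2b-/- and 455 to 550 CPM in double mutants, which overlapped wild-type. Which exons were deleted was not stated in the labels, and these values therefore do not check them.

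In the deposited positions, on mm10 and counted from 1, C3 lies on chromosome 17 from 57203970 to 57228136 and Cfb on the same chromosome from 34856374 to 34862518. Cfp lies on chromosome X from 20925454 to 20931555, Cfi on chromosome 3 from 129836739 to 129875328, Cd55 on chromosome 1 from 130439027 to 130462744, C3ar1 on chromosome 6 from 122847138 to 122856161 and C5ar1 on chromosome 7 from 16246743 to 16259540. In GENCODE vM21 Cfi is on the plus strand and the other members are on the minus strand. The start of Cfi differs there (129835884). Each value counts reads over the gene as a whole, so exons and transcripts cannot be told apart. In that annotation Cfb overlaps Gm20547, a protein-coding gene on the same strand, and Cd55 overlaps Gm16083, an antisense gene, so the values of Cfb and Cd55 are uncertain to the extent that reads were shared.

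RefSeq start-site windows on GRCm38.p6 were matched by symbol for 5 of 7 members. Shown are the windows of C3, Cfp and C3ar1, which were higher in Fcgr2b-/- than in wild-type in both tissues. Each runs 5′ to 3′ on the minus strand and ends at the base before the RefSeq start, except that 4 bases of the C3ar1 window lying inside the GENCODE gene were left out. Coordinates are chr17:57228137-57228386 for C3, chrX:20931556-20931805 for Cfp and chr6:122856162-122856407 for C3ar1. Capitals mark every match, on either strand, to the motifs searched.
C3: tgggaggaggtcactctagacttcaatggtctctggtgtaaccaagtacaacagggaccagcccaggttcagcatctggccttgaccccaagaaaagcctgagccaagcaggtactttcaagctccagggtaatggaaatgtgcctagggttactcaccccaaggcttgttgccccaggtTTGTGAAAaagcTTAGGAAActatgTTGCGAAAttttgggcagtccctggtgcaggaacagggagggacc
Cfp: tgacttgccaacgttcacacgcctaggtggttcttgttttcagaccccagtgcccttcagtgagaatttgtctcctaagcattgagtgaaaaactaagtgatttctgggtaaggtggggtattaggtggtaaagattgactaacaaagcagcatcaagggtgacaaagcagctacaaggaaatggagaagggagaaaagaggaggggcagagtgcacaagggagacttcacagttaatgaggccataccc
C3ar1: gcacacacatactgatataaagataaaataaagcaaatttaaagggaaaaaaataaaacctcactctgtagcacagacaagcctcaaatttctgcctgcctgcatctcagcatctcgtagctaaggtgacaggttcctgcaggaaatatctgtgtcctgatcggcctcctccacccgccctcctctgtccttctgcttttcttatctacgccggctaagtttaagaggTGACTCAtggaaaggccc

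Motifs searched were those of C/EBP factors (TTNNGNAA), AP-1 (TGANTCA), STAT factors (TTCNNNGAA), interferon response elements, the PU.1 core (GAGGAA) and NF-kB by its degenerate consensus. In 250 bases before its start, C3 held 3 C/EBP matches, at 70 to 63, 58 to 51 and 45 to 38 bases before the start. At least 1 such match was present in 36.8% of 32851 RefSeq windows of that length, and 3 or more in 2.62%. C3ar1 held 1 AP-1 match, 22 to 16 bases before its start, a motif present in 6.75% of windows. C5ar1 held 1 C/EBP match at 157 to 150 bases before its start; its window is not shown because most of it lies inside the GENCODE gene. The windows of Cfp and Cd55 held none of the 6 motifs. Background shares were 7.02% for the STAT motif, 2.98% for the interferon motif, 23.3% for the PU.1 core and 3.90% for NF-kB, and no member window matched these. A match describes letters only.

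How complement transcripts differ in the lupus-prone genotype was asked first in kidney, with Fcgr2b-/- set against wild-type. In Fcgr2b-/- kidney 5 of 7 genes rose, C3, Cfp, Cfi, C3ar1 and C5ar1, and none fell. Over all kidney genes 29.5% were called higher and 30.8% lower in this comparison. The median log2 change was 1.84 over the 7 genes and -0.01 over all genes. Cfb and Cd55 did not pass the test. In whole tissue, more cells of a type and more RNA per cell cannot be told apart.

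C3 was at 28.1, 31.0, 142 and 68.2 CPM in the 4 wild-type kidney libraries and at 32, 45.8, 27.5 and 63.5 CPM in Rhbdf2-/-. It was at 1042, 580, 903 and 701 CPM in Fcgr2b-/- and at 246, 177, 339 and 27.9 CPM in double mutants. All Fcgr2b-/- libraries lay above every other library, while double-mutant library 4 lay among the wild-type and Rhbdf2-/- values and the other 3 lay between the groups. C3 averaged 806 ± 206 CPM (SD, n = 4) in Fcgr2b-/- against 67.3 ± 53.1 CPM in wild-type, which is 3.84 ± 0.64 higher on the log2 scale (limma adjusted p = 0.000148). It fell in double mutants against Fcgr2b-/-, by 2.45 ± 0.64 on the log2 scale (limma adjusted p = 0.00645). Without double-mutant library 4 that change was -1.68 and it was still called.

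**Figure D1:**
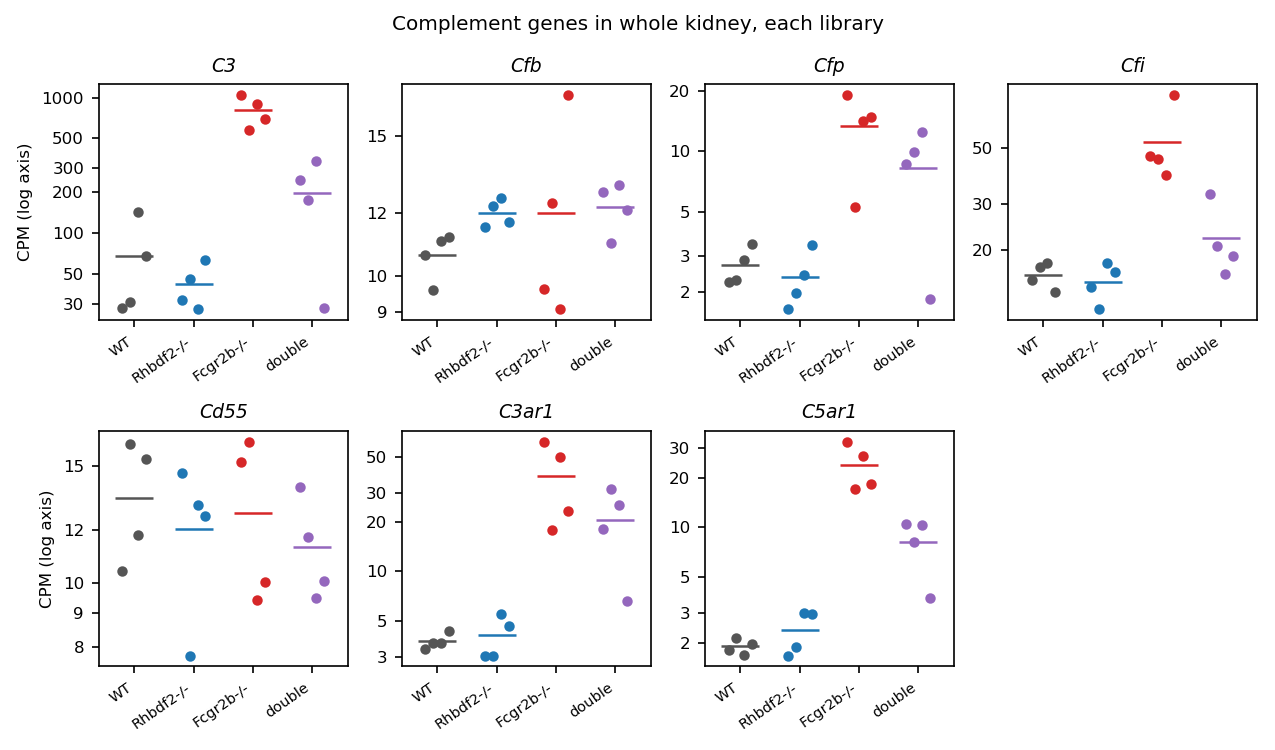
CPM of the 7 complement genes in each whole kidney library (log axis); points are libraries, lines are group means, n = 4 per genotype, and "double" is the double mutant. C3, Cfi, Cfp, C3ar1 and C5ar1 are above wild-type in all 4 Fcgr2b-/- libraries, and double-mutant library 4 is the lowest of its group for C3, Cfp, C3ar1 and C5ar1.

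Among convertase components other than C3, Cfb showed a narrow range in kidney. Its values ran from 9.60 to 11.2 CPM in wild-type, from 11.5 to 12.6 in Rhbdf2-/-, from 9.08 to 16.9 in Fcgr2b-/- and from 11.0 to 13.0 CPM in double mutants. The Fcgr2b-/- libraries spanned the whole range of the other groups. The log2 change in Fcgr2b-/- against wild-type was 0.12 with a 95% interval from -0.17 to 0.42 (limma adjusted p = 0.449), and with quantile scaling it was -0.08. Every Rhbdf2-/- library lay above every wild-type library for Cfb, but the log2 change of 0.16 ± 0.14 did not pass the test (limma adjusted p = 1).

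Properdin behaved otherwise. Cfp was at 2.24, 2.28, 2.86 and 3.46 CPM in wild-type kidney and at 1.63, 1.96, 2.43 and 3.40 CPM in Rhbdf2-/-. It was at 19.0, 5.26, 14.1 and 14.8 CPM in Fcgr2b-/- and at 8.65, 9.95, 12.5 and 1.83 CPM in double mutants. Fcgr2b-/- and wild-type libraries did not overlap, whereas the double-mutant group covered the range from wild-type to Fcgr2b-/-. Cfp rose by 1.84 ± 0.42 in Fcgr2b-/- against wild-type (limma adjusted p = 0.00169). Double mutants against Fcgr2b-/- gave -0.72 ± 0.42, which was not called (limma adjusted p = 0.175). Without Fcgr2b-/- library 2 the Cfp difference was -1.08 and called (limma adjusted p = 0.0382). Without the double-mutant library at 1.83 CPM it shrank to -0.22 and was not called.

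The 2 regulators that limit C3b and its convertases differed. Cfi was at 15.2, 17.1, 17.8 and 13.7 CPM in wild-type kidney and at 14.2, 11.7, 17.8 and 16.3 CPM in Rhbdf2-/-. It was at 46.2, 45.3, 39.1 and 80.1 CPM in Fcgr2b-/- and at 32.9, 20.6, 16.1 and 18.9 CPM in double mutants. Fcgr2b-/- libraries were above all others, and double-mutant libraries overlapped wild-type. Cfi rose by 1.61 ± 0.22 in Fcgr2b-/- (limma adjusted p = 2.44e-05) and fell in double mutants against Fcgr2b-/- by 1.21 ± 0.22 (limma adjusted p = 0.000528). Cd55 ranged from 7.77 to 16.3 CPM over all 16 kidney libraries, and all 4 groups overlapped. Its log2 change in Fcgr2b-/- against wild-type was -0.09, with a 95% interval from -0.53 to 0.36 (limma adjusted p = 0.741), and the sign turned when any of 3 single libraries was left out.

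Both anaphylatoxin receptors rose in Fcgr2b-/- kidney. C3ar1 was at 3.33, 3.65, 3.64 and 4.34 CPM in wild-type and at 3.06, 3.05, 5.50 and 4.65 CPM in Rhbdf2-/-. It was at 61.7, 17.9, 49.9 and 23.2 CPM in Fcgr2b-/- and at 18.2, 31.8, 25.4 and 6.60 CPM in double mutants. The Fcgr2b-/- and double-mutant groups overlapped each other and both lay above wild-type and Rhbdf2-/-. C3ar1 rose by 2.88 ± 0.41 in Fcgr2b-/- (limma adjusted p = 3.92e-05). In double mutants against Fcgr2b-/- it gave -0.88 ± 0.41 and was not called (limma adjusted p = 0.0953). It was called without Fcgr2b-/- library 2 (-1.18) or without double-mutant library 2 (-1.15). Without double-mutant library 4 the difference shrank to -0.45 and was not called.

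C5ar1 was at 1.80, 2.13, 1.69 and 1.96 CPM in wild-type kidney and at 1.67, 1.87, 3.02 and 2.97 CPM in Rhbdf2-/-. It was at 33.0, 17.0, 27.0 and 18.2 CPM in Fcgr2b-/- and at 10.5, 8.15, 10.3 and 3.70 CPM in double mutants. The double-mutant libraries formed a middle group, below every Fcgr2b-/- library and above every wild-type and Rhbdf2-/- library. C5ar1 rose by 3.05 ± 0.27 in Fcgr2b-/- against wild-type (limma adjusted p = 5.13e-07) and fell in double mutants against Fcgr2b-/- by 1.47 ± 0.27 (limma adjusted p = 0.000495).

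Double mutants were thus lower than Fcgr2b-/- kidney for 3 of 7 genes, C3, Cfi and C5ar1, and higher for none. Over all genes 22.8% were called lower and 22.5% higher. Against wild-type, 2 of 7 genes were higher in double mutants, C3ar1 by 2.00 ± 0.41 (limma adjusted p = 0.0161) and C5ar1 by 1.58 ± 0.27 (limma adjusted p = 0.01), beside 4.52% of all genes. Without double-mutant library 4, C3 at 2.16 (limma adjusted p = 0.00629) and Cfp at 1.61 (limma adjusted p = 0.00293) were called as well, against 1.39 and 1.11 with it, while calls over all genes went from 898 to 1706. The call of C3ar1 was lost, at a limma adjusted p from 0.0572 to 0.0602, without wild-type library 1, double-mutant library 2 or double-mutant library 3, and at 0.0695 with a fit to recovered reads. In the authors' deposited table Cfp was also past a false discovery rate of 0.05 in this comparison (log2 change 1.62, rate 0.0462), the only 1 of 48 member comparisons in which that table and the present calls differ.

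Against Rhbdf2-/- kidney, double mutants were higher for C3ar1 (1.93 ± 0.41, limma adjusted p = 0.031) and C5ar1 (1.38 ± 0.27, limma adjusted p = 0.0231), beside 2.32% of all genes. Both calls were lost without any of Rhbdf2-/- libraries 1 and 2 and double-mutant libraries 1, 2 and 3. C3ar1 was also lost without Rhbdf2-/- library 3. Without double-mutant library 4, 4 of the 7 genes were called, while calls over all genes went from 431 to 1566. Rhbdf2-/- against wild-type kidney gave no call among the 7 members, with changes from -0.42 for C3 to 0.20 for C5ar1, and 0% of all genes were called by limma or by voom on recovered reads, while 272 of 12315 had an unadjusted p below 0.05, no member among them. The 95% interval of the C3 difference ran from -1.80 to 0.95, and a difference anywhere in that range could not be told from none at this number of libraries.

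The comparisons with wild-type share the wild-type libraries, and those of the Fcgr2b-/- group share its libraries, so their values are set side by side only. The interaction, (double mutant minus Fcgr2b-/-) less (Rhbdf2-/- minus wild-type), asks whether loss of Rhbdf2 has another effect when Fcgr2b is missing than when it is present. It was negative for C5ar1, at -1.67 ± 0.38 (limma adjusted p = 0.00484), and for Cfi, at -1.12 ± 0.31 (limma adjusted p = 0.0159). Over all kidney genes 13.9% were called lower in the interaction. C3 gave -2.03 ± 0.91, which was not called (limma adjusted p = 0.11).

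**Figure D2:**
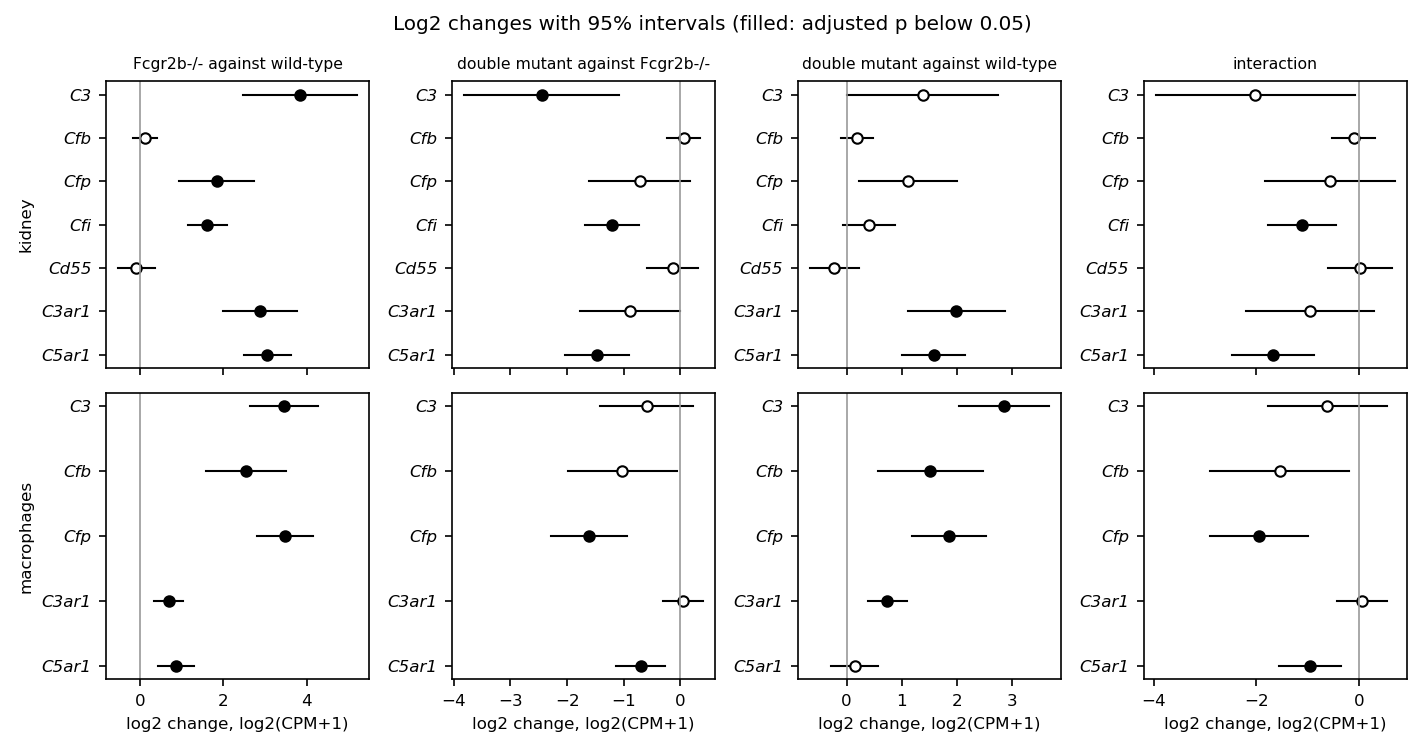
Log2 changes on the log2(CPM+1) scale for kidney (top, n = 4 per genotype) and macrophages (bottom, n = 3 per genotype) in 3 comparisons and the interaction; bars are 95% intervals from limma and filled points have an adjusted p below 0.05. In double mutants against Fcgr2b-/-, C5ar1 is below 0 in both tissues, at -1.47 and -0.70, and C3 is called lower in kidney (-2.45) but not in macrophages (-0.60).

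Of 7 measured macrophage markers in kidney (of 8 listed), 6 were called higher and 1 lower in Fcgr2b-/- against wild-type, the lower one being Mertk, an efferocytosis receptor, at -0.51. In double mutants against Fcgr2b-/- kidney 2 of the 7 were called lower and 5 were not called, beside 22.8% of all genes called lower. The median log2 change of the 7 was -0.57 there, and Cd68, a lysosomal protein of macrophages, fell by 1.14. The summed level of the 7, which hides Mertk, lay between 225 and 258 CPM for wild-type, 224 and 289 for Rhbdf2-/-, 607 and 1624 for Fcgr2b-/-, and 286 and 1004 for double-mutant libraries, where library 4 was the lowest. Expressed as a share of that sum in the same library, C3ar1 ran from 1.41% to 1.88% in wild-type kidney, 1.2% to 1.95% in Rhbdf2-/- and 2.64% to 3.80% in Fcgr2b-/-, with double mutants at 2.31% to 4.16%. C5ar1 ran from 0.655% to 0.892% in wild-type, 0.657% to 1.07% in Rhbdf2-/- and 1.81% to 2.80% in Fcgr2b-/-, with double mutants at 1.03% to 1.63%. On this scale Fcgr2b-/- lay above wild-type and Rhbdf2-/- for both receptors, and double mutants lay above wild-type for both but overlapped Rhbdf2-/- for C5ar1, where they lay below every Fcgr2b-/- library. Cfp did not: its share ran from 0.955% to 1.5% in wild-type, 0.866% to 1.68% in Fcgr2b-/-, with double mutants at 0.641% to 1.35%. In sorted macrophages the receptor shares went the other way. There C3ar1 ran from 9.87% to 10.8% of the marker sum in wild-type and from 5.60% to 5.77% in Fcgr2b-/-. Double mutants, at 9.21% to 10.8%, lay above every Fcgr2b-/- library and overlapped wild-type. C5ar1 ran from 8.77% to 10.6% in wild-type and from 5.76% to 6.00% in Fcgr2b-/-. Double mutants, at 4.53% to 7.86%, spanned the Fcgr2b-/- values, so on this scale C5ar1 did not separate these groups. The Cfp share was higher in Fcgr2b-/- macrophages, at 2.35% to 2.78% against 0.538% to 0.803% in wild-type. So was that of C3, at 0.370% to 0.716% against 0.1055% to 0.127%. Double-mutant macrophages had Cfp at 0.959% to 1.88% and C3 at 0.242% to 0.848%. The marker sum itself was higher in Fcgr2b-/- than in wild-type macrophages. These shares thus depend on the markers chosen as well as on the genes set against them. The kidney shares are not a level per macrophage.

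C3 ran from 12.5% to 55.1% of the macrophage marker sum in wild-type kidney, 60.4% to 95.6% in Fcgr2b-/-, with double mutants at 9.75% to 38.4%. Double mutants and wild-type overlapped on this scale and Fcgr2b-/- lay above both. Markers of injured tubule were, like C3, highest in the Fcgr2b-/- group. The sum of all 8 lay between 2890 and 3256 CPM for wild-type and 2664 and 2927 for Rhbdf2-/-. It lay between 8831 and 16510 for Fcgr2b-/- and 3014 and 6102 for double-mutant libraries. It did not follow C3 within double mutants, where library 3 had the highest C3 (339 CPM) and library 1 the highest sum (6102 CPM). Of 6 fibroblast and mesangium markers 5 were called higher in Fcgr2b-/- against wild-type kidney, and their sum lay between 346 and 1076 CPM for Fcgr2b-/- against at most 241 CPM for wild-type, with double mutants from 149 to 467 CPM. Sums of 5 measured monocyte markers lay between 64.2 and 130 CPM for Fcgr2b-/- against at most 42.0 CPM for wild-type, and those of 2 measured neutrophil markers between 8.75 and 31.0 CPM against at most 2.34 CPM. Sums of 8 proximal tubule markers went the other way, between 21820 and 24420 CPM for wild-type and 19110 and 24050 for Rhbdf2-/-. They lay between 3302 and 6901 CPM for Fcgr2b-/- and 15440 and 18410 for double-mutant libraries. The part of these cell types in the kidney results was not tested.

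**Figure D3:**
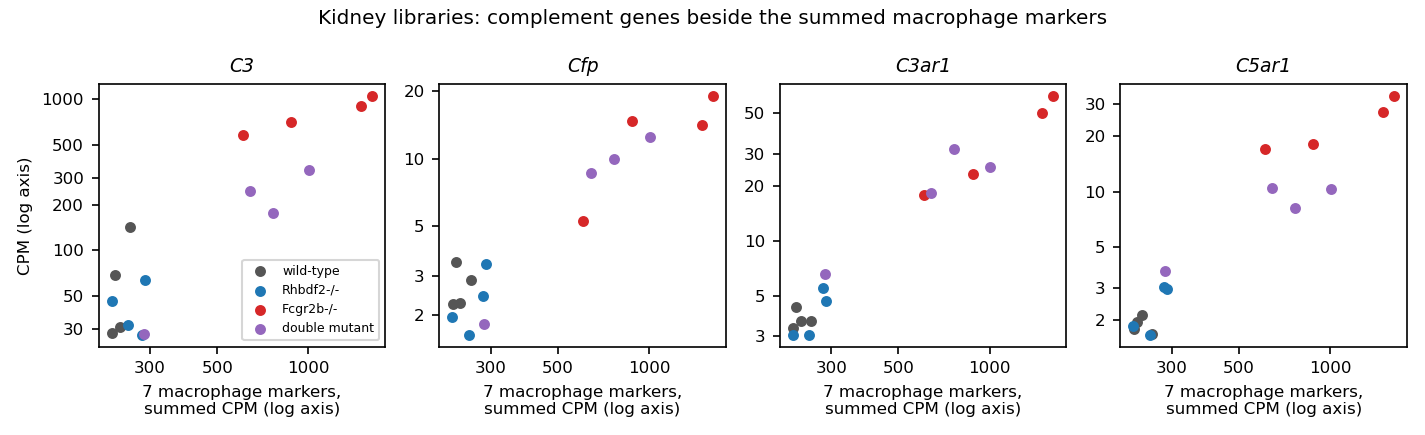
Kidney CPM of C3, Cfp, C3ar1 and C5ar1 (log axis) against the summed CPM of 7 macrophage markers in the same library (log axis), 1 point per library. Double-mutant libraries with a marker sum from 641 to 1004 CPM have C5ar1 from 8.15 to 10.5 CPM, below the 17.0 to 18.2 CPM of the 2 Fcgr2b-/- libraries at 607 and 879 CPM; double-mutant library 4 lies beside the Rhbdf2-/- libraries.

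In sorted macrophages the levels were of another order. Per kilobase of exon, C5ar1 averaged 399 CPM and C3ar1 258 CPM in wild-type macrophages, followed by Cfp at 42.5, C3 at 2.45 and Cfb at 0.203 CPM per kilobase. In wild-type kidney the per-kilobase order was C3 at 13.1, Cfi at 7.69, Cfb at 3.76, Cd55 at 2.77, Cfp at 1.56, C3ar1 at 0.868 and C5ar1 at 0.736 CPM. The receptors thus lay at the top in macrophages and at the bottom in whole kidney. The tissues were normalized separately, so the levels are set side by side with no test.

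All 5 genes rose in Fcgr2b-/- macrophages against wild-type, beside 24.2% of all genes called higher and 28.5% called lower. The median log2 change was 2.55 over the 5 genes and -0.09 over all genes. The convertase genes showed the larger changes and the receptors the smaller.

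C3 was at 10.7, 11.2 and 15.9 CPM in the 3 wild-type macrophage libraries and at 13.1, 13.3 and 11.5 CPM in Rhbdf2-/-. It was at 204, 107 and 145 CPM in Fcgr2b-/- and at 169, 115 and 46.4 CPM in double mutants. Both Fcgr2b-deficient groups lay above both groups with Fcgr2b, and they overlapped each other. C3 averaged 152 ± 48.7 CPM (SD, n = 3) in Fcgr2b-/- against 12.6 ± 2.89 CPM in wild-type, a log2 change of 3.46 ± 0.38 (limma adjusted p = 2.66e-05). Double mutants against Fcgr2b-/- gave -0.60, with a 95% interval from -1.41 to 0.22, and were not called (limma adjusted p = 0.26). Double mutants were above wild-type by 2.86 ± 0.38 (limma adjusted p = 0.000852).

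Cfp was the member with the clearest middle level in double mutants. It was at 54.7, 66.0 and 100.5 CPM in wild-type macrophages and at 96.7, 124 and 61.4 CPM in Rhbdf2-/-. It was at 667, 765 and 1020 CPM in Fcgr2b-/- and at 376, 262 and 184 CPM in double mutants. No double-mutant library overlapped Fcgr2b-/- or wild-type. Cfp rose by 3.48 ± 0.31 in Fcgr2b-/- against wild-type (limma adjusted p = 8.63e-06), fell by 1.61 ± 0.31 in double mutants against Fcgr2b-/- (limma adjusted p = 0.00279) and was 1.86 ± 0.31 above wild-type in double mutants (limma adjusted p = 0.00342).

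Cfb was scarce in macrophages. Its values were 1.2, 0.252 and 0.272 CPM in wild-type, from 40, 8 and 8 reads, and 1.23, 0.922 and 1.42 CPM in Rhbdf2-/-. They were 8.56, 8.93 and 6.37 CPM in Fcgr2b-/- and 7.00, 4.43 and 0.920 CPM in double mutants. Double-mutant library 3 lay within the wild-type range and the other 2 lay near the Fcgr2b-/- values. Cfb rose by 2.55 ± 0.44 in Fcgr2b-/- against wild-type (limma adjusted p = 0.000554). Double mutants against Fcgr2b-/- gave -1.02 ± 0.44, which was not called (limma adjusted p = 0.1). It was called without double-mutant library 1 (-1.46, limma adjusted p = 0.0265). Without double-mutant library 3 the Cfb difference shrank to -0.43 and was not called. Its rise in double mutants against wild-type, 1.52 ± 0.44 (limma adjusted p = 0.0333), was lost without any of the 3 wild-type libraries or double-mutant libraries 1 and 2, at values from 1.09 to 1.79. It was also lost with voom on recovered reads (limma adjusted p = 0.123) and when only the 2 groups compared were fitted (limma adjusted p = 0.115).

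**Figure D4:**
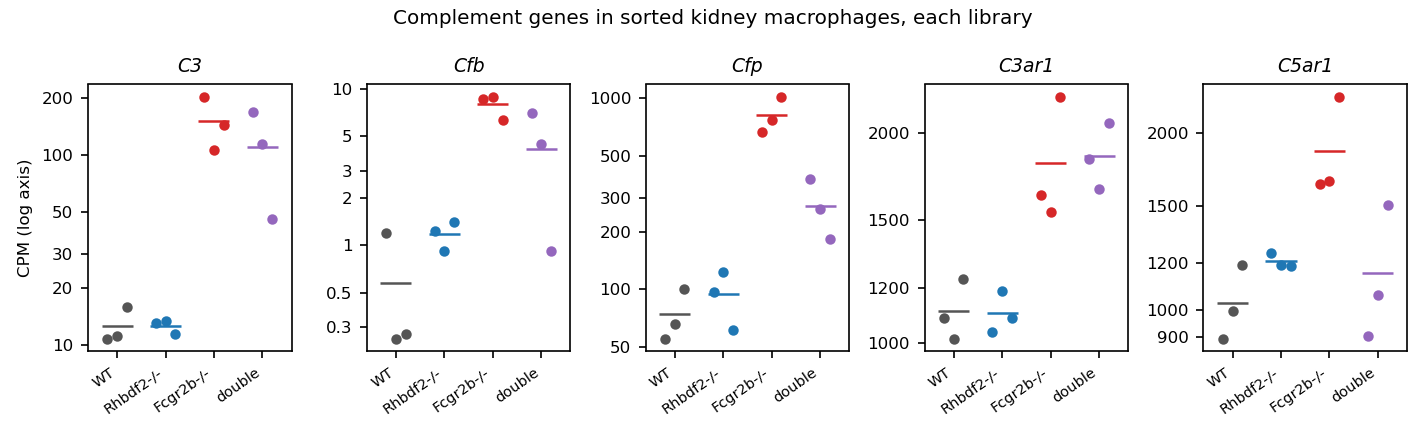
CPM of the 5 complement genes measured in each sorted macrophage library (log axis); points are libraries, lines are group means, n = 3 per genotype. C3ar1 in double mutants, from 1666 to 2068 CPM, overlaps Fcgr2b-/- values, while C5ar1 in double mutants, from 903 to 1505 CPM, and Cfp, from 184 to 376 CPM, lie below every Fcgr2b-/- library.

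The 2 receptors parted in macrophages. C3ar1 was at 1086, 1013 and 1235 CPM in wild-type and at 1038, 1189 and 1085 CPM in Rhbdf2-/-. It was at 1630, 1544 and 2258 CPM in Fcgr2b-/- and at 1837, 1666 and 2068 CPM in double mutants. The 2 groups lacking Fcgr2b overlapped each other and lay above both others. C3ar1 rose by 0.69 ± 0.16 in Fcgr2b-/- against wild-type (limma adjusted p = 0.00374), and double mutants against Fcgr2b-/- gave 0.05, with a 95% interval from -0.30 to 0.40 (limma adjusted p = 0.846).

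C5ar1 was at 892, 995 and 1191 CPM in wild-type macrophages and at 1248, 1194 and 1189 CPM in Rhbdf2-/-. It was at 1636, 1653 and 2303 CPM in Fcgr2b-/- and at 903, 1059 and 1505 CPM in double mutants. Fcgr2b-/- lay above every other library, and double mutants overlapped wild-type and Rhbdf2-/-. C5ar1 rose by 0.85 ± 0.20 in Fcgr2b-/- against wild-type (limma adjusted p = 0.00352) and fell by 0.70 ± 0.20 in double mutants against Fcgr2b-/- (limma adjusted p = 0.0192). The fall was not called without Fcgr2b-/- library 3 (-0.54) or without double-mutant library 1 (-0.54) or 2 (-0.66), nor when only the 2 groups compared were fitted.

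The rises of both receptors in Fcgr2b-/- macrophages depended on scaling. Genes at a like level, within 0.5 of the receptor's mean log2(CPM+1), had median log2 changes of 0.49 beside C3ar1 and 0.51 beside C5ar1 in this comparison. With quantile scaling the changes were 0.15 for C3ar1 (limma adjusted p = 0.383) and 0.33 for C5ar1 (limma adjusted p = 0.0969), and neither was called. C3, Cfp and Cfb kept log2 changes of 3.47, 3.23 and 2.80 with that scaling. The fall of C5ar1 in double mutants against Fcgr2b-/- was -0.59 with quantile scaling and was still called.

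A ratio within a library does not depend on scaling between libraries. In macrophages C5ar1 gave between 0.821 and 0.982 reads per read of C3ar1 for wild-type, 1.00 and 1.2 for Rhbdf2-/-, 1.00 and 1.07 for Fcgr2b-/-, and 0.492 and 0.728 for double-mutant libraries. Double mutants lay below the other 3 groups without overlap. In kidney the same ratio ran from 0.448 to 0.580 in wild-type, 0.534 to 0.948 in Fcgr2b-/-, with double mutants at 0.256 to 0.574, and the groups overlapped. Cfp gave between 0.0503 and 0.0814 reads per read of C3ar1 for wild-type, 0.0566 and 0.104 for Rhbdf2-/-, 0.409 and 0.496 for Fcgr2b-/-, and 0.0888 and 0.204 for double-mutant libraries. Fcgr2b-/- lay above all others, and double mutants lay above wild-type but overlapped Rhbdf2-/-. In kidney the ratio of Cfp to C3ar1 went the other way, from 0.622 to 0.797 in wild-type to 0.282 to 0.637 in Fcgr2b-/-, where library 4 was the highest and overlapped wild-type.

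**Figure D5:**
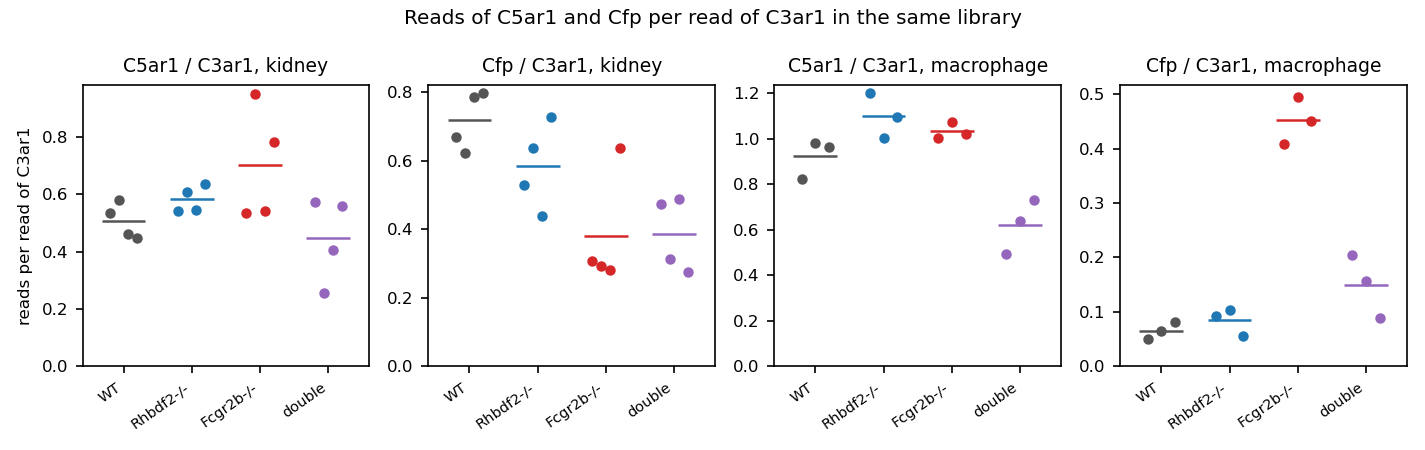
Reads of C5ar1 and of Cfp per read of C3ar1 in the same library, for kidney (left pair, n = 4 per genotype) and macrophages (right pair, n = 3); points are libraries and lines are means. Macrophage C5ar1 per C3ar1 in double mutants, 0.492 to 0.728, is below all other libraries, and macrophage Cfp per C3ar1 in Fcgr2b-/-, 0.409 to 0.496, is above all others.

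Counted over the 5 genes, 2 were lower in double-mutant than in Fcgr2b-/- macrophages, Cfp and C5ar1, and none was higher, beside 13.8% of all genes lower and 15.8% higher. Against wild-type 4 of 5 were higher in double mutants, C3, C3ar1, Cfb and Cfp, beside 9.88% of all genes. C3ar1 stood at 0.74 ± 0.16 there (limma adjusted p = 0.012), and at 0.35 without a call under quantile scaling (limma adjusted p = 0.0876), and the call was also lost without wild-type library 2 (0.68, limma adjusted p = 0.0665). C5ar1 gave 0.15 ± 0.20 (limma adjusted p = 0.625), and -0.26 under quantile scaling.

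Against Rhbdf2-/- macrophages 3 of 5 were higher in double mutants, C3 by 2.85 ± 0.38 (limma adjusted p = 0.00108), Cfp by 1.53 ± 0.31 (limma adjusted p = 0.0105) and C3ar1 by 0.75 ± 0.16 (limma adjusted p = 0.0134), beside 9.2% of all genes. The call of C3ar1 was lost without Rhbdf2-/- library 1 (limma adjusted p = 0.0521) and under quantile scaling. Cfb gave 1.00 ± 0.44 and was not called (limma adjusted p = 0.126). Cfb was called with quantile scaling (1.44, limma adjusted p = 0.0279) and without double-mutant library 3 (1.60, limma adjusted p = 0.009). Rhbdf2-/- against wild-type macrophages gave no call among the 5 genes, with changes from -0.01 for C3ar1 to 0.52 for Cfb, while 0.019% of all genes were called and 339, no member among them, had an unadjusted p below 0.05. The interaction was negative for Cfp, at -1.95 ± 0.44 (limma adjusted p = 0.0174), and for C5ar1, at -0.95 ± 0.28 (limma adjusted p = 0.0463), beside 5.89% of all genes called lower. Leaving out any 1 of 9 of the 12 libraries ended the C5ar1 call, at values from -1.03 to -0.79.

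Other cell types were measurable in the sorted cells. Csf1r, the receptor that defines the macrophage lineage, was at 2301 to 3735 CPM over all 12 libraries, while Adgre1, the gene of F4/80, was not analysed here. The sum of 6 measured loop, distal tubule and collecting duct markers lay between 1668 and 7385 CPM for wild-type, 2891 and 3294 for Rhbdf2-/-, 392 and 1058 for Fcgr2b-/-, and 446 and 2441 for double-mutant libraries. Injured tubule markers, 5 measured of 8 and mostly Spp1, summed to values between 590 and 1303 CPM for wild-type and 1112 and 1506 for Rhbdf2-/-. Their sums lay between 8243 and 10110 for Fcgr2b-/- and 775 and 1385 for double-mutant libraries. Sums of 8 proximal tubule markers showed no such rise, at 1048 to 1903 CPM for wild-type and 939 to 1657 for Fcgr2b-/-. They were 1576 to 2268 CPM for Rhbdf2-/- and 828.5 to 966 for double mutants. Which cells the Spp1 reads came from was not tested. The 7 macrophage markers, mostly Lyz2, summed to values between 9376 and 12520 CPM for wild-type and 10220 and 11410 for Rhbdf2-/-. Their sums lay between 27540 and 39170 CPM for Fcgr2b-/- and 17930 and 19950 for double-mutant libraries. Fcgr2b-/- was thus highest and double mutants next, an order shared by the group means of Cfp, C3 and Cfb. Of 8 neutrophil markers 2 were measured, and their sums lay between 72.0 and 105 CPM for wild-type, 99.8 and 104 for Rhbdf2-/-, 109 and 118 for Fcgr2b-/-, and 160 and 169 for double-mutant libraries, the highest group. Sums of 4 measured monocyte markers (of 6) lay between 358 and 850 CPM for wild-type, 371 and 443 for Rhbdf2-/-, 538 and 1120 for Fcgr2b-/-, and 662 and 1149 for double-mutant libraries. Lymphoid and dendritic cell markers were lowest in Fcgr2b-/-. Sums of 5 measured dendritic cell markers were at most 12.2 CPM there and at least 41.2 CPM in every other group, with double mutants from 93.1 to 199 CPM. Sums of 3 measured B and plasma cell markers were at most 109 CPM there and at least 179 CPM elsewhere, and sums of 6 T and NK cell markers were at most 38.4 CPM there and from 34.4 to 315 CPM in double mutants. Their part in the results was not tested.

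Ordered by mean level across genotypes, kidney C3, Cfi and C5ar1 each had Fcgr2b-/- at the top, apart from the next group by a call. For C5ar1 the double mutants were the next group, also apart from Rhbdf2-/- below them, and Rhbdf2-/- and wild-type did not pass the test against each other. For kidney C3 and Cfi the lower 3 groups did not separate by a call, and for Cfp and C3ar1 the upper pair, Fcgr2b-/- and double mutant, did not. For Cfp the double mutants were also not called against wild-type (limma adjusted p = 0.12) or Rhbdf2-/- (limma adjusted p = 0.0899), while for C3ar1 they were called against both. Macrophage C3 and Cfb had Fcgr2b-/- first and double mutants next, with no call between this pair or between Rhbdf2-/- and wild-type. Macrophage C3ar1 had double mutants at 1857 ± 202 CPM and Fcgr2b-/- at 1811 ± 390 CPM (SD, n = 3), and macrophage C5ar1 had the order Fcgr2b-/-, Rhbdf2-/-, double mutant and wild-type with no call among the lower 3.

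The rest of the complement system was counted from 53 further genes, in lists chosen with earlier results of these data known, of which 25 were measured in kidney and 19 in macrophages. In Fcgr2b-/- against wild-type kidney 13 of 25 rose and 4 fell, beside 29.5% of all genes called higher and 30.8% called lower. Of the 9 classical and lectin pathway genes measured 7 rose and none fell, among them the chains of C1q, the recognition protein of the classical pathway: C1qa by 2.95 ± 0.41, C1qb by 2.92 ± 0.41 and C1qc by 3.04 ± 0.43. Of 8 measured genes of the alternative pathway, its regulators and the C3 fragment receptors 4 rose and none fell, with Itgam, the alpha chain of complement receptor CR3, at 3.62 ± 0.42. Of 6 measured C5 and terminal pathway genes 2 rose and 3 fell. Clu, clusterin, an inhibitor of the terminal complex, rose by 1.78 ± 0.21, and C8a, a chain of the terminal protein C8, changed by -3.69 ± 0.26.

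In double mutants against Fcgr2b-/- kidney 3 of the 25 further genes rose and 3 fell, each a smaller share than the 22.5% of all genes called higher and 22.8% called lower. C8a rose by 3.43 ± 0.26, Cpb2, a carboxypeptidase that inactivates anaphylatoxins, by 1.01 ± 0.17 and C8g, another chain of C8, by 0.95 ± 0.19. Clu fell by 2.11 ± 0.21, Itgam by 1.33 ± 0.42 and Thbd, thrombomodulin, by 0.44 ± 0.17. None of the 9 measured classical and lectin pathway genes was called by limma, and 1 of them, C2, had an unadjusted p below 0.05, with a median log2 change of -0.39, beside calls for C3, Cfi and C5ar1 among the members. The difference between the groups of genes was not tested.

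In Fcgr2b-/- against wild-type macrophages 8 of 19 further genes rose and 5 fell, beside 24.2% of all genes called higher and 28.5% called lower. Itgam rose by 2.98 ± 0.28, C4b, the C4 gene of the classical pathway, by 2.78 ± 0.47, Colec12, a membrane collectin, by 2.59 ± 0.42 and Itgb2, the beta chain of CR3, by 0.96 ± 0.18. Masp1, a protease of the lectin pathway, fell by 1.77 ± 0.24 and C2, the classical counterpart of factor B, fell by 1.40 ± 0.26. In double mutants against Fcgr2b-/- 2 rose, Masp1 by 1.24 ± 0.24 and C2 by 1.22 ± 0.26, and 4 fell, Colec12 by 2.41 ± 0.42, Thbd by 1.18 ± 0.23, Itgam by 0.98 ± 0.28 and Cpn1, a subunit of the carboxypeptidase that inactivates anaphylatoxins, by 1.38 ± 0.45. Over all genes 15.8% were called higher and 13.8% lower there.

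The genes with the most similar profile to each member were found by the mean absolute difference of centred log2(CPM+1) values over the libraries of a tissue. In kidney, over 16 libraries and 11610 candidate genes, C3ar1 was nearest to Mpeg1 (0.163), C1qa (0.176) and Clec4a2 (0.176), and C5ar1 to Tlr13 (0.162), Runx1 (0.209) and Socs3 (0.217). Kidney Cfp was nearest to Tnfaip8l2 (0.169), Cd300a (0.187) and Slc15a3 (0.192), Cfi to Gpc3 (0.199), Dcdc2a (0.210) and Cd93 (0.215), and C3 less closely to Ltbp2 (0.422), Trem2 (0.492) and Col1a1 (0.497). In macrophages, over 12 libraries and 9746 candidates, C3 was nearest to Gdf3 (0.241), Mmp14 (0.315) and Hvcn1 (0.354), and Cfp to Gla (0.227), Cebpb (0.250) and Cstb (0.263). Macrophage Cfb was nearest to Anpep (0.280), Steap3 (0.292) and Alas1 (0.311). C3ar1 was nearest there to Cd53 (0.0869), Gmfg (0.0998) and Pik3r5 (0.1), and C5ar1 to Golm1 (0.126), E2f2 (0.135) and Haus2 (0.135). The receptors thus shared none of these nearest genes in either tissue.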

How the data were processed

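Per the labels, polyadenylated RNA of whole kidney was sequenced with TruSeq libraries and that of sorted macrophages, obtained after collagenase digestion and a Percoll gradient, with SMART-Seq v4 libraries. The deposited tables hold log2 CPM per gene and library, computed by the authors within each tissue. They also hold the authors' log2 fold changes and p-values with false discovery rates for their own comparisons, and a length and position for each gene, per the file headers. Positions are on mm10, also written GRCm38, per the submitters' processing notes. The aligner, counting method, annotation and strand setting were not given in the sources used here. Reads shared with overlapping or antisense genes therefore cannot be told apart. The titles of the double-mutant libraries name the Rhbdf2 knockout alone, and their genotype was taken from the genotype label.

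Deposited values were turned back to CPM. Steps between low values gave whole reads for 100% of 4140 kidney and 5227 macrophage low values, within 0.1 read. A single read equals between 0.0226 and 0.0354 CPM (kidney) or 0.0277 and 0.0329 CPM (macrophages). The limit that a count of 0 allows, 3 reads, equals between 0.0677 and 0.106 or 0.0831 and 0.0988 CPM and covers counting error only. No pair of libraries held identical values. Deposited starts were counted from 0 and were raised by 1.

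The test was limma (version 3.58.1, R 4.3.3) with a mean-variance trend on log2(CPM+1), all 4 genotypes of a tissue in 1 fit, two-sided, with Benjamini-Hochberg adjustment over all its genes and a threshold of 0.05. It was tested on simulated data. A fold change on this scale understates the change of low genes. Tissues were tested apart. The members and gene lists were chosen with earlier results of these data known. Other complement genes were named by the smallest p, up to 6 per comparison among those called, and like genes as the 3 with the smallest mean absolute difference. Alternatives were a pseudocount of 0.5, a filter on low values, voom on recovered reads, quantile and median scaling, a fit of the compared groups alone, robust moderation without a trend, a block by title letter in macrophages and leaving out each library in turn.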

Additional observations from a re-analysis of the deposited data

Results flagged for a closer look

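The interaction term was called for 2 members in each tissue, and in kidney an effect of lane cannot be told apart from it. The term is the double mutant minus Fcgr2b-/- difference less the Rhbdf2-/- minus wild-type difference. In kidney it was -1.67 for C5ar1, with all 4 double-mutant libraries below all 4 Fcgr2b-/- libraries, and -1.12 for Cfi, with the same separation. In macrophages it was -1.95 for Cfp and -0.95 for C5ar1, each with all 3 double-mutant libraries below all 3 Fcgr2b-/- libraries. Over all genes 27.8% in kidney and 11.9% in macrophages were called in the interaction in either direction, so 2 of 7 kidney members is close to the share over all genes. The macrophage C5ar1 value lost its call without any of 9 libraries. No member had a library set apart by Dixon's test in the 28 kidney groups of 4, and groups of 3 were not tested.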

How the results depend on the processing

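With voom on recovered reads, 1 member, 4 other complement genes and 479 genes in all were called in double-mutant against wild-type kidney, and 0, 0 and 77 against Rhbdf2-/- kidney. With voom in macrophages the interaction called 1 member and 1 other complement gene, and Rhbdf2-/- against wild-type called 0 genes, as it did with the filter on low values, which leaves out macrophage Cfb. With only the compared groups fitted, 3550 genes were called in double-mutant against Fcgr2b-/- kidney, 3 other complement genes in double-mutant against Rhbdf2-/- kidney, 1 member in double-mutant against Fcgr2b-/- macrophages, 3 other complement genes and 599 genes in double-mutant against wild-type macrophages, and 5 genes in Rhbdf2-/- against wild-type macrophages. Robust moderation gave 5 genes there too and 1 member in the interaction. Quantile scaling left 3 members called in Fcgr2b-/- against wild-type macrophages and gave -0.079 for kidney Cfb in Fcgr2b-/- against wild-type, -0.083 for it in double mutants against Rhbdf2-/-, and -0.26 for macrophage C5ar1 in double mutants against wild-type. The cause was not tested. Scaling by median moved no member's call in the comparisons run.

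The titles of wild-type and Rhbdf2-/- macrophage libraries carry letters. Deviations of the libraries sharing a letter correlated at 0.242 and -0.054 over 10523 genes, so the letters were not shown to pair them. With a block by letter, 2 members, 2 other complement genes and 253 genes were called in double-mutant against wild-type macrophages, 1, 1 and 162 against Rhbdf2-/-, and 1 member in the interaction. The block leaves few libraries to link these genotypes. Kidney libraries carry no such letters.

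Leaving out each library in turn gave 3 to 5 members, 5 to 11 other complement genes and 4855 to 5902 genes in all in double-mutant against Fcgr2b-/- kidney. The same 3 counts were 1 to 4, 4 to 10 and 121 to 1706 against wild-type. Against Rhbdf2-/- they were 0 to 4, 0 to 12 and 27 to 1566. In double-mutant macrophages they were 1 to 2, 5 to 8 and 2217 to 3456 against Fcgr2b-/-, and 2 to 4, 3 to 9 and 450 to 3007 against wild-type. Against Rhbdf2-/- macrophages they were 2 to 4, 2 to 8 and 598 to 2601. In macrophages 2 to 8 genes in all were called in Rhbdf2-/- against wild-type. The interaction there gave 1 to 2, 0 to 3 and 517 to 1304. The sign turned for uncalled values alone. In kidney these were Cfb (-0.043 to 0.23 in Fcgr2b-/- against wild-type, -0.048 to 0.23 in double mutants against Fcgr2b-/-, -0.0070 to 0.067 against Rhbdf2-/- and -0.21 to 0.065 in the interaction), Cd55 (-0.21 to 0.035 in Fcgr2b-/- against wild-type, -0.24 to 0.034 in double mutants against Rhbdf2-/-, -0.27 to 0.021 in Rhbdf2-/- against wild-type and -0.16 to 0.14 in the interaction), and, in Rhbdf2-/- against wild-type, C3 (-0.73 to 0.036), Cfi (-0.17 to 0.015) and C3ar1 (-0.061 to 0.17). In macrophages they were C3ar1 (-0.053 to 0.22 in double mutants against Fcgr2b-/-, -0.071 to 0.071 in Rhbdf2-/- against wild-type and -0.046 to 0.23 in the interaction), C5ar1 (-0.058 to 0.31 in double mutants against wild-type and -0.31 to 0.062 against Rhbdf2-/-) and C3 (-0.079 to 0.19 in Rhbdf2-/- against wild-type). Depth limits macrophage Cfb most, with 8 reads in 2 wild-type libraries.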
